A study of Mus musculus with 4 samples.

Results

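Gas2l3 and 9 genes of the central spindle and of cytokinesis were described in irradiated LSK cells (Lin-Sca-1+c-Kit+), the sorted part of the marrow that is rich in blood stem cells and in the first progenitors they form. Gas2l3 was picked because its signal differed between necdin null and wild type cells, so its difference is given as a description with no test. The other members, Racgap1, Ect2, Anln, Kif23, Kif20a, Prc1, Cit, Cep55 and Aurkb, were chosen for their role in cell division. That choice was made with earlier results of these data known. All 10 genes, of 18194 named genes on the array, passed the filter on low values (a mean log2 value of at least 5.09, near a signal of 30.3), as did 12680 genes in all. The members had 23 of the 45101 probe sets, of which 20 passed that filter. Each gene is represented by its main probe set, the one with the highest mean log2 signal, unless another is named.

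The study hybridised 4 mouse Affymetrix 3' expression arrays. The 2 necdin null arrays held LSK cells of C57BL/6 mice whose marrow had been rebuilt with fetal liver cells lacking necdin, the growth-suppressing protein encoded by Ndn. The 2 wild type arrays held LSK cells of mice rebuilt with wild type fetal liver cells, and mice of both groups had received 6.5 Gy, a sublethal dose. There was no unirradiated group. The sources used here do not give how long after irradiation the cells were taken, how many host cells were left in the rebuilt marrow, or whether an array held 1 mouse or a pool. P-values therefore measure only how far these arrays differ, and part of that may be technical.

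The median signal lay between 53.7 and 63.2 on the 4 arrays, and so few arrays limit how precise any value can be. Ndn was at 55.4, 105, 253 and 255 on necdin null 1 and 2, then wild type 1 and 2, the order used for all sets of 4 values below. Among the LSK markers, Kit was at 6049, 3744, 6617 and 3976, and Cd34 lay between 13407 and 15252. Ly6a, which encodes Sca-1, was not analysed here. The T cell markers Cd3e and Cd8a were at 37.8 or less and at 64.0 or less, but Zap70 was at 501, 122, 318 and 753. The B cell marker Cd79a was at 68.7 or less, but Cd79b lay between 694 and 1231. The monocyte marker Csf1r lay between 834 and 3497. The part of such cells in the results was not tested. Necdin null replicate 2 stood apart in its 3' to 5' signal ratio of Gapdh, 15.8 against 9.96 to 11.7, and in the share of signal on its brightest 1% of probe sets, 37.4% against 28.9% to 30.6%. The main differences are therefore also given without it. Sex-linked signal ran partly with genotype: Xist was at 4841, 76.8, 9930 and 7182, lower on both necdin null arrays, and the Y-linked Eif2s3y was at 2273, 2987, 32.6 and 1974, low on wild type replicate 1 alone. Its part in the results was not tested.

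Cytokinesis separates the daughter cells after the chromosomes have parted. Antiparallel microtubules are bundled between the chromosome sets into the central spindle, which recruits an activator of the small GTPase RhoA to the cell equator. RhoA then builds a contractile ring of actin and myosin, and the narrow bridge that remains, with the midbody at its centre, is finally cut by membrane-severing proteins. GAS2L3 is a linker protein that binds both actin and microtubules and is found at the midbody of dividing cells. Many of these genes are transcribed late in the cell cycle under the MuvB complex, which acts as the repressor DREAM in resting cells and with B-MYB and FOXM1 in cycling cells. Stem cells of the LSK fraction are largely quiescent, while the progenitors in it cycle.

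Gas2l3 was about 3 times as high in necdin null cells by its main probe set, and not by all of its probe sets. Main probe set 1455980_a_at gave signals of 2875, 2491, 706 and 1081. Both necdin null arrays lay above both wild type arrays, by more than the distance between replicates. Group means were 2683 ± 271 and 893 ± 265 (SD, n = 2 each), a fold of 3.06. On the log2 scale the groups differed by 1.61 (standard error 0.24). Arrays numbered 1 differed by 2.02 and those numbered 2 by 1.20, and the difference was 1.71 without necdin null replicate 2. Of all 12680 genes, 1.49% were at least 2-fold higher in necdin null cells with groups that did not overlap. Counted from the most positive difference down, Gas2l3 ranked 56 of 12680. Gas2l3 was picked for its difference, so this rank is a description only.

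Probe set 1437244_at, which the annotation ties to the same source sequence as the main probe set, gave 2401, 2335, 592 and 933. Its difference was 1.67, with the same order of groups. Probe set 1453416_at, tied to another source sequence, gave 962, 707, 1629 and 1054. Here both necdin null arrays lay below both wild type arrays, but by less than the distance between replicates. The difference was -0.67 on the log2 scale (standard error 0.28). The order of the wild type arrays differed too: replicate 1 was the lower of the pair by the first 2 probe sets and the higher by the third. Probe set 1453416_at was not dim, with group means of 834 ± 181 and 1341 ± 406 (SD, n = 2 each). Over all probe sets past the filter, 15.4% were higher and 16% were lower in necdin null cells with groups apart. The sources used here do not give which part of the transcript each probe set reads. The sign of the Gas2l3 difference thus depended on the probe set, and the mean over its 3 probe sets was 0.87.

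**Figure D1:**
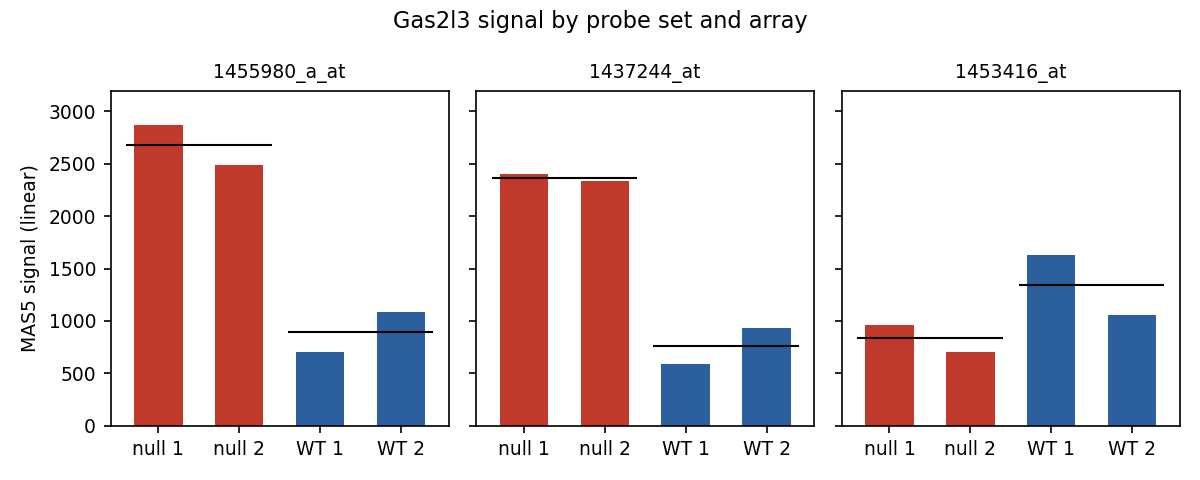
Bars show the MAS5 signal (linear scale) of each Gas2l3 probe set on the 2 necdin null (red) and 2 wild type (blue) arrays, and black lines the group means. Probe sets 1455980_a_at and 1437244_at are high on both necdin null arrays. Probe set 1453416_at is highest on wild type replicate 1, and wild type replicate 2 lies little above necdin null replicate 1 (1054 against 962).

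The sequence around the start of Gas2l3 is set beside those of 3 other members that were picked for having the same pair of short motifs. By the main probe sets the signals of these genes did not move alike. Ect2 also has the pair but is not shown, and its hexamers lie outside the stretch printed here. Sequences are from RefSeq (GRCm38.p6), 5' to 3', from 50 bases before to 12 bases after the annotated start. Capitals mark CCAAT, the box bound by NF-Y (read as ATTGG on the other strand), and TTTGAA or TTCGAA, forms of the cell cycle genes homology region (CHR) to which MuvB binds. The windows are chr10:89443956-89444017 for Gas2l3, chr15:99651645-99651706 for Racgap1 and chr9:61946788-61946849 for Kif23, all on the minus strand, and chr7:80294401-80294462 on the plus strand for Prc1.
Gas2l3: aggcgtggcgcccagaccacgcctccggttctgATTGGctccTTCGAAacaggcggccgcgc
Racgap1: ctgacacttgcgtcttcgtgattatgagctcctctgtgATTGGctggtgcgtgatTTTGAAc
Kif23: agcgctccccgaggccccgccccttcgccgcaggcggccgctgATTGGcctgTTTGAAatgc
Prc1: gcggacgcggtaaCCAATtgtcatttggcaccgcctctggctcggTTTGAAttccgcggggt
In Gas2l3 the hexamer begins 8 bases before the start, and 4 bases separate it from the CCAAT box. Kif23 has the same spacing of 4 bases, Racgap1 has 12 and Prc1 has 27.

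The hexamer TTTGAA, the hexamer TTCGAA, the hexamer TTTAAA and the CCAAT box were searched on both strands in windows of 250 bases before to 50 after each start. A match of one of these motifs is never also a match of another, and TTCGAA as well as TTTAAA read the same on both strands. The promoter table held 8 of the 10 members, with 11 windows, and did not hold Kif20a and Aurkb. At least 1 of the 3 hexamers was found for 7 of the 8, all but Cit, against 28.8% of all 32851 windows. Here and below members are counted by gene, with a match in any of their windows, and the shares by window. The 2 are thus not in the same unit. TTTGAA was found for 6 members (17.9% of all windows). TTCGAA was found for Gas2l3 and for no other member (1.56% of all windows). CCAAT was found together with a hexamer for 5 members, Gas2l3, Racgap1, Ect2, Kif23 and Prc1 (11.3% of all windows). These are matches of letters, and the members were not drawn at random from the genome.

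None of the 9 other members shared the difference that Gas2l3 had by its main probe set. Their log2 differences ran from -0.52 to 0.16 with a median of -0.08, beside a median of -0.03 over all 12680 genes, and none of them reached that of Gas2l3. Of the 9, 7 were lower and 2 were higher in necdin null cells, where 54.1% of all genes were lower. With limma, 0 of the 9 passed an adjusted p of 0.05 (adjusted p = 0.999 for each), and of all genes 0% passed. At an unadjusted p under 0.05 there were 2 of the 9, Racgap1 and Aurkb, against 3.02% of all genes (383 of 12680). Both were lower, as 1.95% of all genes were at that p. That count was 0 with the mean over probe sets, without the intensity trend of the fit, and on leaving out either replicate 2 array, and it was 1 on leaving out either replicate 1 array. These were also the 2 members whose necdin null arrays both lay below both wild type arrays, as did 17.7% of all genes (23.2% after median centring of the arrays). No other member was higher with groups apart, as 12.8% of all genes were. In a mixed fraction such as this, fewer dividing cells and less RNA per dividing cell cannot be told apart.

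**Figure D2:**
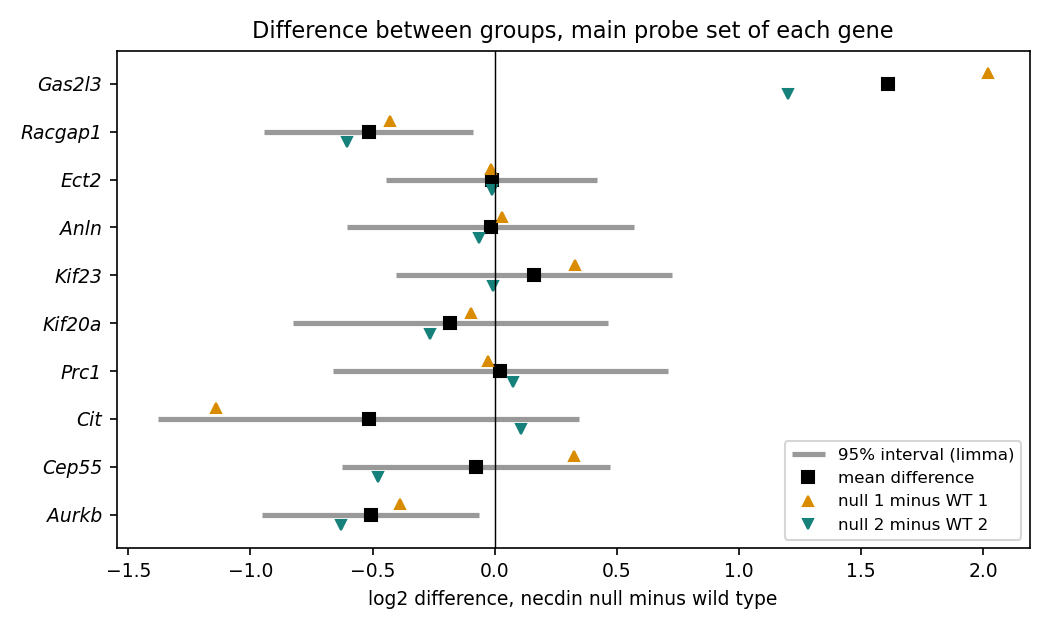
Squares show the log2 difference (necdin null minus wild type) of each gene's main probe set, triangles the differences between arrays of the same replicate number, and grey bars the 95% interval of the limma fit, not adjusted for the number of genes. Gas2l3, drawn without an interval because it was picked on this difference, lies at 1.61, while the other 9 genes lie between -0.52 and 0.16.

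Prc1 crosslinks antiparallel microtubules and so founds the central spindle. Its signals were 1613, 1041, 1644 and 989. The arrays fell by replicate number and hardly by genotype, with both replicate 2 arrays below both replicate 1 arrays. The difference between genotypes was 0.02 (95% interval -0.66 to 0.71). The other Prc1 probe set, 1423774_a_at, gave 1082, 637, 999.5 and 505, the same order by replicate number and a difference of 0.22.

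Racgap1 and Kif23 together form centralspindlin, the complex that binds the bundled microtubules and docks the RhoA activator. Racgap1, its GTPase-activating subunit, had 1482, 1374, 1995 and 2089. The groups did not overlap and lay farther apart than the replicates, with means of 1428 ± 76.2 and 2042 ± 66.5 (SD, n = 2 each). They differed by -0.52 on the log2 scale, with a standard error of 0.19 (95% interval -0.94 to -0.09, not adjusted for the number of genes). Its second probe set past the filter, 1451358_a_at, gave 728, 706, 911 and 822, also lower in both necdin null arrays, at -0.27. Without necdin null replicate 2 the Racgap1 difference was -0.46, at an unadjusted limma p of 0.129. The third Racgap1 probe set was under the filter, at 6.76 or less. Kif23, the kinesin subunit, had 1310.0, 1573, 1043 and 1579. Its groups overlapped, at a difference of 0.16 (95% interval -0.40 to 0.73), with wild type replicate 1 the lowest array. That sign did not hold: it was -0.14 without wild type replicate 1. A dim Kif23 probe set, 1453748_a_at, had 41.5, 26.4, 50.5 and 99.0, lower in both necdin null arrays at -1.01, and another was under the filter at 21.8 or less. No direction thus held for Kif23, and neither subunit passed the test.

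Ect2, the exchange factor that activates RhoA at the equator, had 3417, 2948, 3448 and 2972. Its values matched between genotypes within each replicate number, with differences of -0.013 and -0.012, and both replicate 2 arrays were the lower ones. The mean difference was -0.01 (95% interval -0.45 to 0.42).

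Anln encodes anillin, which ties actin, myosin and septins together in the contractile ring. Its signals were 977, 711, 957 and 742, again lower on both replicate 2 arrays, with a genotype difference of -0.02 (95% interval -0.60 to 0.57). A dim second probe set had 63.2 at most. Cit encodes citron kinase, which organises the midbody. Its main probe set 1455609_at gave 193, 307, 430.3 and 285. The groups overlapped, and the difference of -0.52 (95% interval -1.38 to 0.35) was -1.14 for the arrays numbered 1 and 0.11 for those numbered 2. The other 3 Cit probe sets past the filter had differences of 0.32, 1.53 and 0.06, so no direction held for Cit. Its mean over probe sets was 0.35. Probe set 1458276_x_at had 247, 257, 168 and 239.6, higher in both necdin null arrays, and the remaining pair had signals of 121 or less.

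Aurkb encodes Aurora B, the kinase of the chromosomal passenger complex, which moves to the central spindle in anaphase and delays abscission while chromatin lies in the bridge. Its signals were 2733, 2167, 3575 and 3355. The groups did not overlap, with means of 2449.8 ± 399.9 and 3465 ± 156 (SD, n = 2 each), and the difference on the log2 scale was -0.51, standard error 0.20 (95% interval -0.95 to -0.06, not adjusted for the number of genes). Without necdin null replicate 2 it was -0.34, at an unadjusted limma p of 0.193. Probe set 1451246_s_at, tied to the same source sequence, gave 2162, 1694, 2630.0 and 2267, at -0.35. Both Aurkb probe sets are of classes that may match other transcripts (_x_at and _s_at). Kif20a encodes the kinesin that carries the passenger complex to the midzone. It had 695, 481, 744 and 579.5, with overlapping groups, both replicate 2 arrays lower, and a difference of -0.18 (95% interval -0.83 to 0.46).

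Cep55 recruits the ESCRT machinery that cuts the bridge. Its signals were 2595, 1659.6, 2073 and 2312. The highest and the lowest array were both necdin null, so the groups overlapped, and the difference of -0.08 (95% interval -0.62 to 0.47) was 0.32 for the arrays numbered 1 and -0.48 for those numbered 2. The second Cep55 probe set was under the filter.

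**Figure D3:**
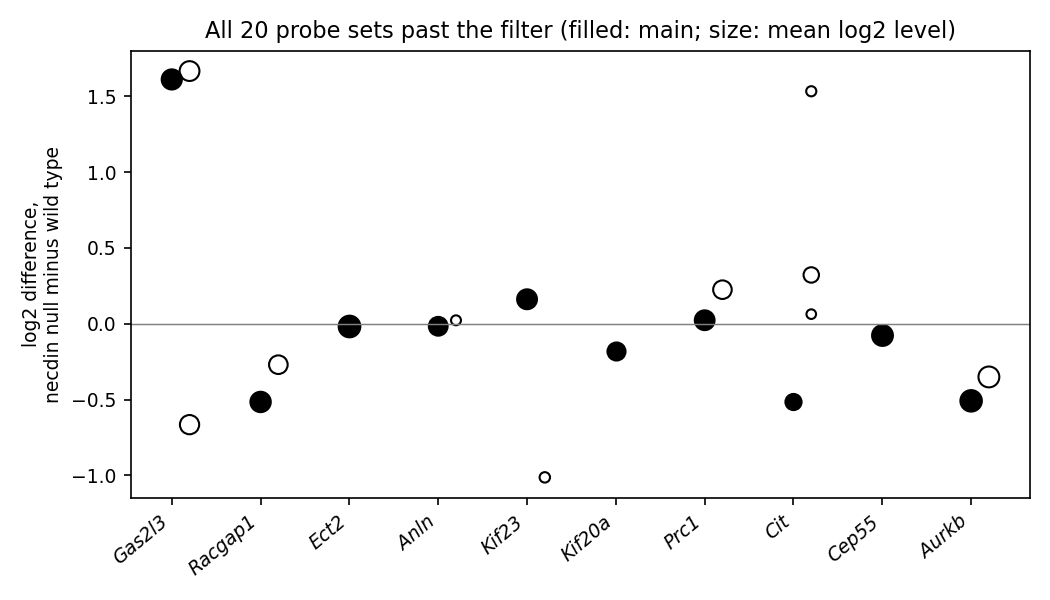
Each circle is 1 of the 20 probe sets past the filter, placed at its log2 difference (necdin null minus wild type), with the main probe set of each gene filled and the others open, set slightly to the right; circle size follows the mean log2 level. The probe sets of Racgap1 and of Aurkb lie below 0, whereas those of Gas2l3, Kif23, Cit and, close to 0, Anln lie on both sides of it.

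Set against the other members array by array, Gas2l3 stood above their median on both necdin null arrays and below it on both wild type arrays. On the log2 scale it lay 0.91 and 0.70 above its own mean over the arrays in necdin null cells, and its deviations in wild type cells were -1.11 and -0.50. The median deviation of the 9 others was 0.10 and -0.30, then 0.22 and -0.04. The gap between Gas2l3 and that median was 0.81 and 1.01 in necdin null and -1.34 and -0.46 in wild type cells. The difference of Gas2l3 exceeded the median of the 9 by 1.69, by 1.63 without necdin null replicate 2, and by 2.26 without wild type replicate 2. By probe set 1453416_at the contrast turned, since the Gas2l3 difference of -0.67 was below those of all 9, of which the lowest was -0.52. The median of the 9 changed sign without necdin null replicate 2, to 0.08, and was -0.34 without wild type replicate 2. No deviation of another member reached that of Gas2l3 on either necdin null array: the highest was 0.33, for Prc1 on replicate 1, and 0.21, for Kif23 on replicate 2. Since Gas2l3 was picked for its difference on these same arrays, this contrast is a description only.

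**Figure D4:**
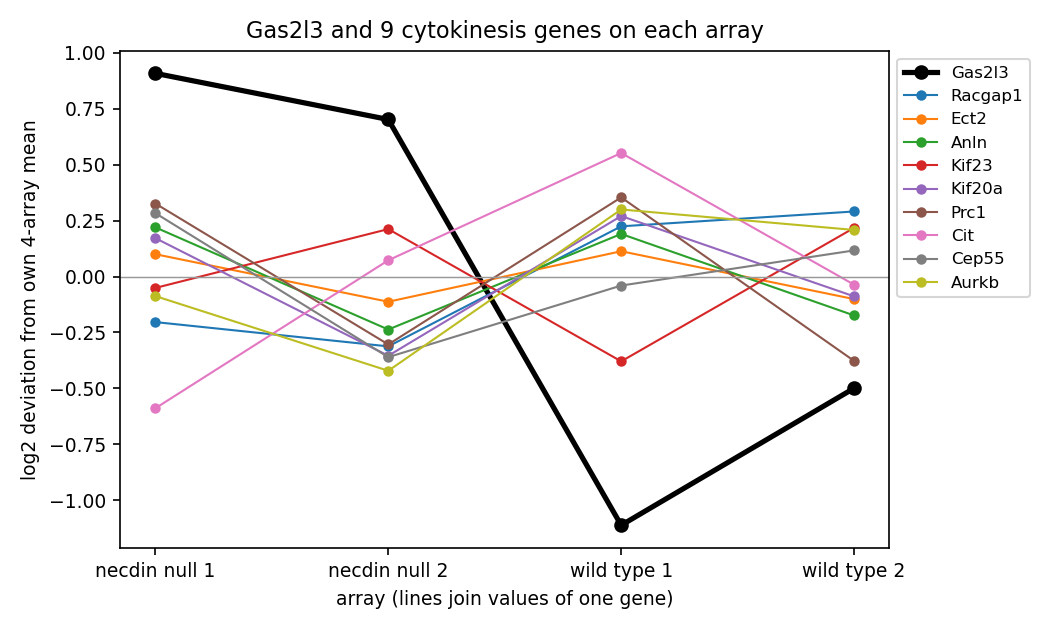
Points show the log2 deviation of each gene's main probe set from its own mean over the 4 arrays; lines only join the values of a gene and carry no order of the arrays. Gas2l3 (black) is at 0.91 and 0.70 on the necdin null arrays and below 0 on both wild type arrays, and Prc1, Anln, Ect2 and Kif20a dip on both replicate 2 arrays.

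Some of the 9 varied with the replicate number. Prc1, Anln, Ect2 and Kif20a had both replicate 2 arrays below both replicate 1 arrays, as did 21.1% of all genes, and Kif23 had both above, as did 19.5%. The median of the 9 between replicate 2 and replicate 1 was -0.33 within necdin null and -0.21 within wild type cells. By its main probe set Gas2l3 did not follow the number, at -0.21 and 0.61. Its probe set 1453416_at was lower on replicate 2 within each group, at -0.44 and -0.63. Neutrophil markers moved with the number in the opposite direction and also with genotype. Of the 14 measured, 11 were above on both replicate 2 arrays, and their summed signal was 102976, 212480.0, 78943 and 148481. By genotype 13 of the 14 were higher in necdin null cells, 3 of them with groups apart (12.8% of all genes), at a median log2 difference of 0.43. That median was 0.54 for the arrays numbered 1 and 0.42 for those numbered 2, and -0.02 without necdin null replicate 2. At an unadjusted limma p under 0.05 there were 0 of the 14, and 7 with the replicate number as a block. Of all 12680 genes, 383 were under that p in the main fit and 675 with the block. Other markers rose with the number too: 4 of 7 measured monocyte markers and 5 of 7 B cell markers were above on both replicate 2 arrays. Of the B cell markers 1 was below on both. Kit and 5 other of the 10 measured LSK markers were below on both replicate 2 arrays. The part of these cells, and of the signal ratio of Gapdh on necdin null replicate 2, in the members' values was not tested.

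The wider machinery was read from lists of genes by role, and no gene in them passed the limma test over all genes. Among genes of the central spindle and its kinases, 7 of 12 measured were higher in necdin null cells and 5 lower, and the median log2 difference was 0.04. A median this close to 0 carries no direction, and it was -0.04 with median centring. Cdc14b, a phosphatase that reverses mitotic phosphorylation, had 145, 212, 72.3 and 101, higher in both necdin null arrays at 1.00 with a standard error of 0.46 (limma adjusted p = 0.999). Kif18b, a microtubule-depolymerising kinesin, was at -0.51. Plk1, the polo kinase that licenses Ect2 recruitment, had 719.8 and 449 against 917 and 595. Birc5, the passenger subunit survivin, had 1706 and 1167 against 1499.8 and 1068. Their groups overlapped, with both replicate 2 arrays the lower in each gene. Without necdin null replicate 2 the difference was 0.73 for Cdc14b and -0.14 for Kif18b. Of the 12, 1 was higher and 3 lower with groups apart, where 12.8% of all genes were higher and 17.7% lower.

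Genes of the contractile ring split into 9 higher and 8 lower of 17, with a median of 0.01 and differences between -0.41 and 0.33. The members of smallest unadjusted p were the septins Septin9 at -0.25 and Septin11 at -0.28, filaments that anchor the ring. The septins had no shared direction: Septin7 was at -0.28, Septin6 at 0.01, and Septin2 at 0.23, higher in both necdin null arrays. With groups apart, 2 of the 17 were higher and 1 lower, against 12.8% and 17.7% of all genes. Abscission genes split into 11 higher and 12 lower of 23, at a median of -0.02. The ESCRT-III subunits Chmp5 and Chmp2b had the smallest unadjusted p there, and both were higher in both necdin null arrays, at 0.57 and 0.39 (limma adjusted p = 0.999 for each). Chmp5 had 2942 and 2355 against 2009 and 1571. Without necdin null replicate 2 they were at 0.73 and 0.42. Other ESCRT-III subunits went the other way: Chmp3 at -0.53 and Chmp1a at -0.36 were lower in both necdin null arrays. With groups apart, 5 of the 23 were higher and 4 lower, against 12.8% and 17.7% of all genes.

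The 2 relatives of Gas2l3 past the filter were not higher as a group in necdin null cells. Gas2, the founding member of the family, had 219 and 126 against 258 and 238, lower in both necdin null arrays at -0.56 with a standard error of 0.41 (-0.17 without necdin null replicate 2). Gas2l1 had 99.5 and 65.2 against 66.9 and 175.0, with overlapping groups. Gas2l2 was under the filter. Mapre1, which encodes the microtubule end-binding protein EB1, had 9777 and 10870.4 against 8331 and 6921, higher at 0.44 with a standard error of 0.20. Of the 9 measured genes of the family and of other linkers of actin and microtubules, 3 were higher and 6 lower, the median was -0.06, and none passed the test.

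Regulators of late cell cycle transcription had a median near 0. Of 12 measured subunits and partners of MuvB, 9 were higher and 3 lower, and the median was 0.07. With groups apart 1 was higher and 1 lower, against 12.8% and 17.7% of all genes. Leaving out necdin null replicate 1 turned the median to -0.10, as did leaving out wild type replicate 2. Lin9, a core subunit, had 574 and 431 against 552 and 350.3. Mybl2, which encodes B-MYB, had 248 and 227 against 261 and 236. Foxm1 had 252 and 149 against 196 and 244. Their groups overlapped. Lin37, the subunit needed for repression, had 245 and 219 against 321 and 352, lower in both necdin null arrays at -0.53 with a standard error of 0.32, and Rbbp4, a histone-binding subunit, was at 0.20 (-0.16 without necdin null replicate 2). None passed the test.

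Of the other G2/M genes 20 of 31 were lower in necdin null cells, at a median of -0.16, and 6 of the 31 were lower with groups apart, where 17.7% of all genes were. Leaving out necdin null replicate 2 moved that median to -0.02, leaving out wild type replicate 1 moved it to -0.01, and the mean over probe sets gave -0.03. Mki67, the proliferation marker, had 1049.6 and 1493 against 2117 and 1846, a difference of -0.66 with a standard error of 0.23, and Espl1, the protease separase, had -0.53 with a standard error of 0.25 (limma adjusted p = 0.999 for each). Without necdin null replicate 2 Mki67 was at -0.91 and Espl1 at -0.27. S phase genes split into 11 higher and 13 lower of 24, at a median of -0.03. Gins1, a subunit of the replicative helicase, was at -0.35 and Fen1, a flap endonuclease, at 0.43 (0.11 without necdin null replicate 2).

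The 5 genes whose profile over the 4 arrays was most like that of Gas2l3 were not among the members or lists. Likeness was the root mean square difference between the log2 deviations of a gene and those of Gas2l3 over the 4 arrays, so a smaller value is more alike. The closest were Cspg4 (0.13), N4bp2l2 (0.14), Cxcl12 (0.14), Proser2 (0.14) and Gm1673 (0.18). Their signals were far lower than those of most members' main probe sets and in part below the filter level, on wild type arrays only. Cspg4 had 87.3 and 69.9 against 23.0 and 32.8, and Gm1673 had 68.7 and 59.7 against 12.6 and 16.4. Cxcl12 and Gm1673 passed the filter only through their necdin null values, so the filter itself favoured genes high in necdin null cells here. Among the 9 other members Kif23 was closest, at rank 1838, and Cit farthest, at rank 11602. The closest gene of the lists was Cdc14b, at rank 73. These ranks rest on 4 arrays, and Gas2l3 was picked for the pattern.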

How the data were processed

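Per the labels, total RNA was turned into biotinylated cRNA. The authors deposited intensity values that their processing notes call MAS5 signals. They are linear. The version of MAS5 used is not stated there. The mean after trimming 2% of probe sets at each end was 500.004 on every array. 

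Names came from the platform annotation: 34958 of 45101 probe sets had 1 symbol, 932 had several and 9211 had none there. Signals were analysed as log2(signal + 3.80), the pseudocount being the 10th percentile of all values, so differences of dim genes are understated. Genes under the 40th percentile of probe set means were left out. Groups were compared with limma 3.58.1 in R 4.3.3 (lmFit, eBayes with trend, two-sided tests). P-values were adjusted by Benjamini-Hochberg over all genes or all 27061 probe sets, at a threshold of 0.05. This step was run on simulated independent values, with variances from the fit itself and no shared replicate effect. That run checks the code, not how well the model holds for these arrays. With 2 arrays a group, the smallest two-sided p of an exact permutation test is 0.333.

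The members and lists were chosen with earlier results of these data known. From each list the 2 genes of smallest p were named, with Gas2, Gas2l1, Foxm1, Mybl2, Lin9, Plk1, Birc5 and Mki67, and the 5 genes most like Gas2l3. Alternatives changed the pseudocount, filter, normalization, variance model and probe sets, added a replicate block, or left out 1 array.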

Additional observations from a re-analysis of the deposited data

How the results depend on the processing

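The other probe sets were tried after seeing the data. The Gas2l3 difference was 0.87 as the mean over probe sets and -0.67 by probe set 1453416_at, 1.30 to 1.92 when leaving out 1 array, and between 1.53 and 1.67 under the other alternatives. Its excess over the median of the 9 others was 0.95 with the mean over probe sets and 1.44 to 2.26 when leaving out 1 array. By probe set 1453416_at Gas2l3 lay below all 9 others. The median of the 9 ranged from -0.34 to 0.081 when leaving out 1 array. Members lower with groups apart numbered 0 without _s_at, _x_at and _a_at probe sets, which leaves no Racgap1 or Aurkb probe set, and 3 to 6 without 1 array, where 32.2% to 38.6% of all genes were lower in this way. The 6 arose on leaving out necdin null replicate 1, and on leaving out wild type replicate 2. Genes called numbered 0 to 4, and probe sets 0 to 6, without 1 array, the lone array being assumed to vary like the others. With the replicate number as a block 3 genes were called (Ddit4, Gas2l3 and Tcl1b3), and 0 with quantile normalization as well. Gas2l3 was picked for its difference on these same arrays, so its call there is not a test of it. The block changed no call of the other members. Same-numbered arrays deviated together at a correlation of 0.11 across genes, with 2 pairs only.

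Signs turned for members near 0, and for Cit, whose main difference was -0.52. Anln was at 0.045 with cyclic loess, at 0.047 with quantile normalization, with or without the block, at 0.0030 with the mean over probe sets and at 0.023 by probe set 1439648_at. Ect2 was at 0.0046 with quantile normalization, with or without the block. Prc1 was at -0.058 with median centring. Kif23 was at -0.43 with the mean over probe sets and -1.01 by 1453748_a_at. Cit was at 0.35 with that mean, and at 1.53, 0.063 and 0.32 by its other probe sets. Without 1 array the range was -0.25 to 0.21 for Anln, -0.40 to 0.25 for Cep55, -0.12 to 0.095 for Ect2, -0.45 to 0.081 for Kif20a, -0.14 to 0.46 for Kif23 and -0.34 to 0.39 for Prc1. Apart from the choice of probe set, the cause of these turns was not tested. Racgap1 and Aurkb were lower under every alternative that measured them.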
